A study of Mus musculus with 42 samples.

Results

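The interferon response and the loading of peptides onto MHC class I molecules were followed through 40 genes in mouse skin, skin papillomas and squamous cell carcinomas of the skin. The genes were taken by their annotated symbol, from a list written with earlier results of these data known. On the first of the array designs used, 34 of the 40 had a probe that named a single gene, out of 14442 such symbols, each with 1 probe, and all 34 passed the filter on missing values. Oas1g, Oas2, Oasl1, Ifi44, Bst2 and H2-D1 were not measured on that design. The second design measured 39 of the 40, out of 17501 symbols, with 134 probes, of which 77 were for B2m. Ifi44 was measured on neither.

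Each array set the RNA of a whole tissue, in 1 dye, against a universal mouse reference RNA in the other. The first design held 6 samples of untreated skin from adult mice whose strain and sex the labels do not give, 9 papillomas labelled Low Risk (10 arrays), 10 papillomas labelled High Risk and 6 squamous cell carcinomas. All tumours came from female Sencar mice, a strain bred for sensitivity to skin carcinogens, and arose under DMBA, a mutagen that starts tumours, and TPA, a phorbol ester that promotes them, with initiation at 7 to 8 weeks of age. The second design held 10 further papillomas of the same strain and treatment labelled Unknown, which belong to no group here. Skin and tumours thus differed in treatment, and whether they also differed in strain is not given. Low and high risk are the labels' words, and the labels used here do not define them. Nothing in the labels ties each sample to a mouse of its own, and 2 low-risk and 6 high-risk papillomas share a code with another of their group, so that p-values measure the spread between these samples.

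Values are log2 of sample over reference, centred on each array's median, so that 0 is the level of the middle probe. The labelled arrays held 16286 to 21494 values of 21997 probes, and the SD of an array ran from 0.454 to 1.95. Clustering by the pattern of missing probes, cut at 5 clusters, divided the 31 samples into 5 array sets, A to E, that cut unevenly across the groups. The number 5 was a choice, the labels name no such sets, and whether they are batches was not tested. Correlations of the pattern between arrays went down to 0.13 within sets and up to 0.28 between sets. Set A held 4 skins and high-risk papilloma 10, set B 6 low-risk papillomas, set C 1 skin, 4 high-risk papillomas and 2 carcinomas, set D 1 skin, 3 low-risk papillomas, 1 high-risk papilloma and 4 carcinomas, and set E high-risk papillomas 1 to 4. Normal skin 1 and carcinoma 6 carried nearly the same values, with a median difference of 0.065 log2 units in size over 16718 probes, so the differences that passed are also given without both. The labels name them as different tissues, and whether the labels of both hold was not tested. A list of 13 tested keratinocyte genes had a mean log2 level of 0.83 to 3.36 in every sample, above the reference. In such bulk tissue, fewer cells of a type and less RNA per cell cannot be told apart.

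Interferons are secreted proteins that cells release on sensing virus or damage. Type I interferons act on genes that carry a DNA element called ISRE, and interferon gamma on genes that carry an element called GAS. The induced genes include antiviral effectors, GTPases that attack the vacuoles of intracellular pathogens, and the parts of the class I pathway, in which the immunoproteasome cuts peptides, TAP carries them into the endoplasmic reticulum, and a heavy chain with beta-2 microglobulin presents them to CD8 T cells.

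The promoters of the 4 genes that changed, and of Irgm2 beside its relative Igtp, are shown so that their elements can be compared. Each runs from 250 bases before to 50 bases after the RefSeq start, 5′ to 3′ in the direction of transcription, on mouse build GRCm38.p6, all on the plus strand. Capitals mark matches on either strand to an ISRE core, which is GAAA, any 2 bases and GAAA, or to a GAS core, TTCNNNGAA. Igtp lies at chr11:58199306-58199605, Irgm2 at chr11:58214727-58215026, B2m at chr2:122147437-122147736, Ifit3 at chr19:34583279-34583578 and Tap1 at chr17:34187306-34187605.
Igtp: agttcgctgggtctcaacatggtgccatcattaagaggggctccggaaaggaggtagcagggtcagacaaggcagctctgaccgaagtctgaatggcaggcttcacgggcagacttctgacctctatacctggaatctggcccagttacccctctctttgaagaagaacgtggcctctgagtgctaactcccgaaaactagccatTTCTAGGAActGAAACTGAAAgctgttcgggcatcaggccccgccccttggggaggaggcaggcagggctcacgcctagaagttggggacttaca
Irgm2: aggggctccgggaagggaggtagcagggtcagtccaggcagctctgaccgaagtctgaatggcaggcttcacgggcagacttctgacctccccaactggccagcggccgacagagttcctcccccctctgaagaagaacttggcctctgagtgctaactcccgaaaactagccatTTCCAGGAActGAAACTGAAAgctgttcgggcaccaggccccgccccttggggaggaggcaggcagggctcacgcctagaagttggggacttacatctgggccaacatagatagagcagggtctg
B2m: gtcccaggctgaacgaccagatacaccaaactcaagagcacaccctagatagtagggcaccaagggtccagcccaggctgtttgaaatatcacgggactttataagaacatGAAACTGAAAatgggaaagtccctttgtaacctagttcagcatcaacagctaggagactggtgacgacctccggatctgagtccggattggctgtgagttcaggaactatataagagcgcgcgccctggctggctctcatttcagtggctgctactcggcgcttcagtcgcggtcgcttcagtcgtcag
Ifit3: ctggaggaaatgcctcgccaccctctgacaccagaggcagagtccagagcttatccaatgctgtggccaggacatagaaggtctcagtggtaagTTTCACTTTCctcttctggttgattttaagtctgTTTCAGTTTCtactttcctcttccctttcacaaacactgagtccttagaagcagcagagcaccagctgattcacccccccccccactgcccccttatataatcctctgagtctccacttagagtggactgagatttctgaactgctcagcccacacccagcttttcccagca
Tap1: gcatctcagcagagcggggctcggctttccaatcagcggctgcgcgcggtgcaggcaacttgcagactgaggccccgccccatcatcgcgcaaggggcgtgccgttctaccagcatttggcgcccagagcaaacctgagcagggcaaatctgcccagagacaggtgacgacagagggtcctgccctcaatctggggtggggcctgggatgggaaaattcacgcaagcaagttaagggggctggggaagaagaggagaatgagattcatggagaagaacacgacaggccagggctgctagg
In Igtp the GAS core starts 45 bases and the ISRE core 34 bases before the transcription start, and in Irgm2 they start 75 and 64 bases before it, so that both genes carry the elements 11 bases apart. B2m carries an ISRE core 139 bases before its start, and Ifit3 carries a pair, 156 and 122 bases before, on the opposite strand. Neither core matched in the Tap1 window, which says only that these letters are absent there.

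RefSeq promoters of this length were matched to 33 of the 40 genes, which have 39. Of these promoters, 16 held an ISRE core, against 3.44% of all 32851 promoters, and 9 held a GAS core, against 8.30%. By role, the ISRE core lay in 5 of 5 GTPases, 8 of 13 antiviral effectors, 1 of 5 transcription factors, 1 of 2 chemokines and 1 of 8 class I genes, that 1 being B2m.

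Against untreated skin, low-risk papillomas had more Ifit3, an antiviral effector, and less Igtp, a GTPase, and B2m, the light chain of class I molecules. High-risk papillomas had less B2m and less Tap1, a subunit of the peptide transporter. Carcinomas had less B2m than skin and more Igtp than low-risk papillomas. These 7 differences, in 4 genes, were all that passed among the 34 genes in 6 comparisons, with limma's moderated test adjusted by Benjamini-Hochberg over 18904 features at a threshold of 0.05. The 3 comparisons with skin share the skin samples, and each tumour group enters 3 comparisons.

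The counts of genes that passed stood close to those of the whole array. Of the 34 genes, 3 passed between low-risk papillomas and skin (1 higher, 2 lower), where 7.55% of all features did (3.94% higher, 3.61% lower). Between high-risk papillomas and skin 2 passed, both lower, against 5.01% of all features (2.57% higher, 2.44% lower). Between carcinomas and skin 1 passed, lower, against 1.16% (0.254% higher, 0.905% lower). Between carcinomas and low-risk papillomas 1 passed, higher, against 1.12% (0.354% higher, 0.767% lower). In limma no gene of the list passed between high-risk and low-risk papillomas, where 0.667% of features did (0.354% higher, 0.312% lower). There 7 of the 34 had an unadjusted p under 0.05, against 17.3% of all features. None passed between carcinomas and high-risk papillomas either, against 0.0423% (0.0212% in each direction), with 5 of 34 under an unadjusted 0.05, against 10.5% of all. Against skin, 10, 12 and 7 of 34 were under an unadjusted 0.05 in the low-risk, high-risk and carcinoma groups, where 23.4%, 19.7% and 11.3% of all features were. In carcinomas against low-risk papillomas 8 of 34 were, against 16.1% of all. The counts that passed depended on the model: with array weights they were 8, 10, 10, 4, 2 and 0, in the order in which the comparisons passed above, and with a block for array set 0 in all 6. The shares of all features under array weights are not given here, so these counts do not show whether the genes moved more than the whole array.

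Medians over the list were small. The median log2 difference from skin was -0.22 in low-risk papillomas, -0.19 in high-risk papillomas and -0.09 in carcinomas, beside medians over all features of -0.02, -0.00 and -0.00. In those comparisons 20, 21 and 20 of the 34 genes lay below 0. By role the medians parted: the 8 class I genes stood at -0.52, -0.79 and -0.71 in the low-risk, high-risk and carcinoma groups, the 7 GTPases at -0.29, -0.36 and -0.30, and the 12 antiviral effectors at -0.01, 0.13 and 0.29.

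**Figure D1:**
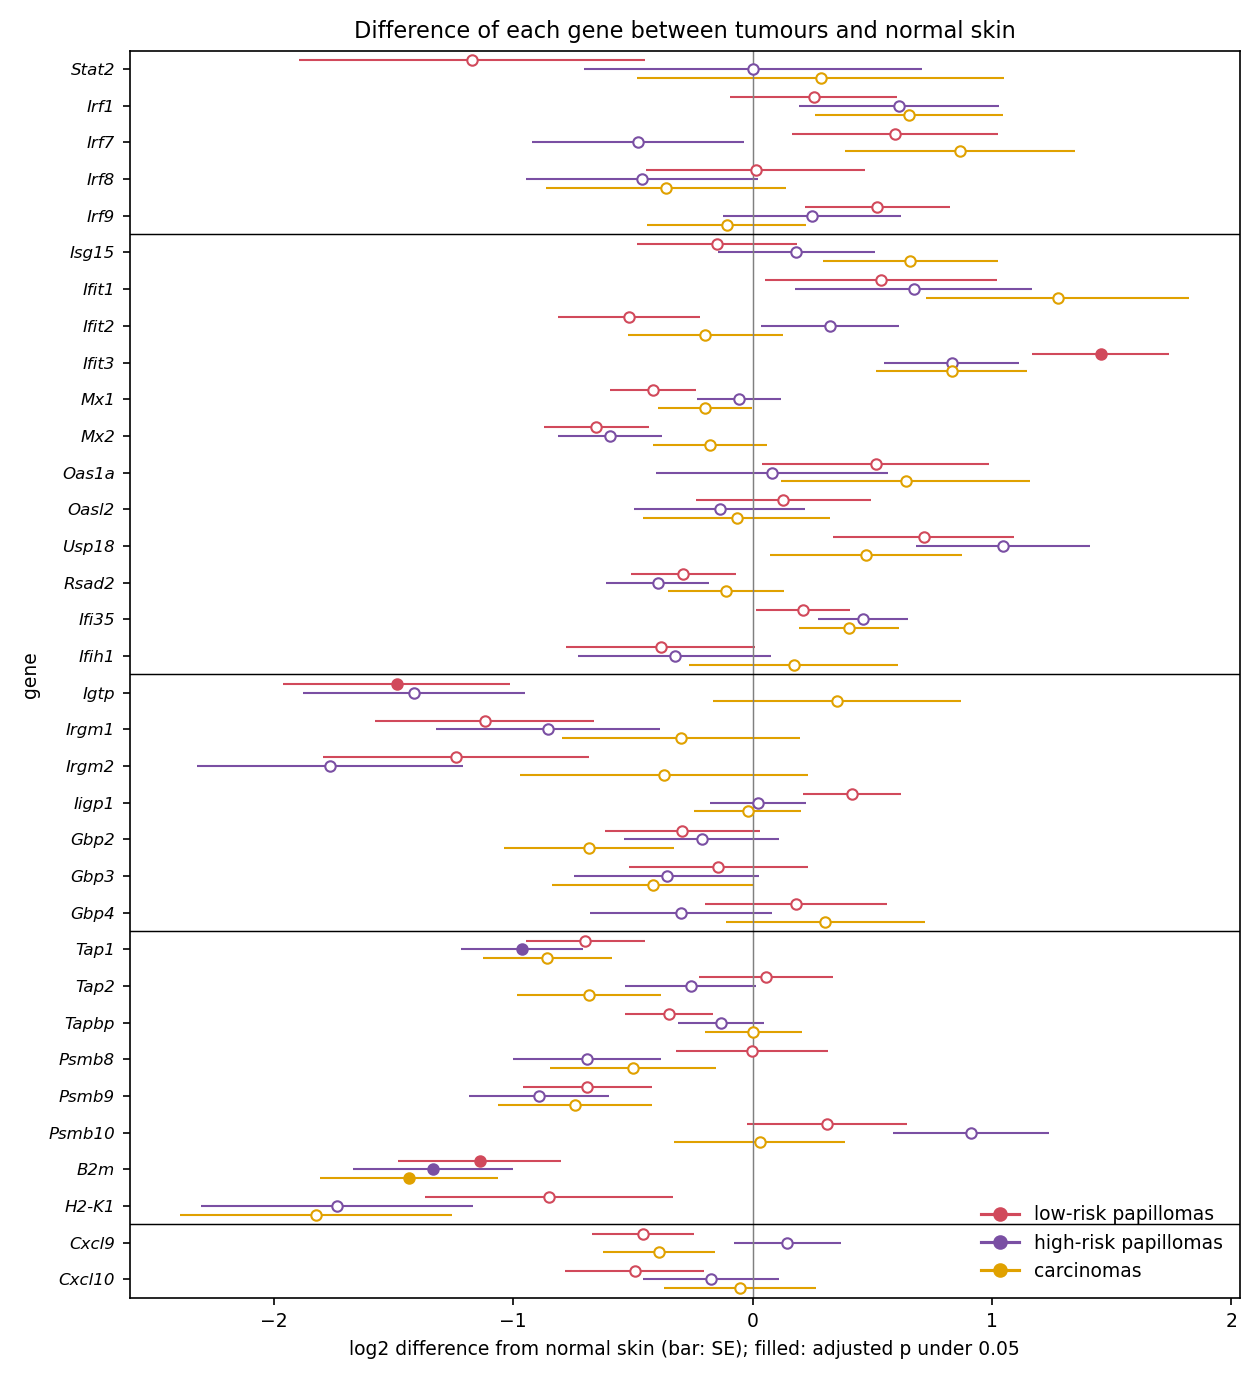
Log2 difference from normal skin of each of the 34 genes, by role, in the 3 tumour groups, with bars of 1 SE; filled points passed the adjusted threshold of 0.05. B2m lies to the left in all 3 tumour groups (-1.14, -1.33 and -1.43) and is filled in each, and most class I genes lie left of 0 while the antiviral effectors lie on both sides.

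Among the 5 transcription factors, none passed in any comparison, with a smallest adjusted p of 0.166 over the 3 comparisons between tumour groups and 0.311 over the 3 with skin. Irf7, which amplifies type I interferon production, ran from -1.42 to -0.68 in 5 skins (median -0.98), from -1.46 to 0.54 in 8 low-risk papillomas (median -0.24), from -3.58 to -0.54 in 7 high-risk papillomas (median -0.77) and from -0.93 to 0.41 in 5 carcinomas (median 0.02). The groups overlap. High-risk papillomas of set E spread from -3.58, the lowest value of all samples, to -0.672. That upper value lay just above the highest skin, -0.677, and within the range of the low-risk papillomas. The difference of carcinomas from high-risk papillomas was 1.35 ± 0.44 (SE, adjusted p = 0.280).

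Irf1, which interferon gamma induces, lay between -0.57 and -0.50 in the 4 high-risk papillomas that measured it, above all 5 skins, whose highest value was -0.72. This difference did not pass the test. Stat2 and Irf9, partners in the factor that binds ISRE, had their extremes in the same tumour: low-risk papilloma 8 had the lowest Stat2 value, -6.88, and the highest Irf9 value, 2.52. For Stat2, 5 of 8 low-risk papillomas lay below all 5 skins and 1 above them. Irf8, a factor of macrophages and dendritic cells, ran from -1.42 to 1.80 over all groups, which overlapped.

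Ifit3 was the antiviral effector that changed. Its human counterpart binds the relative IFIT1 and stabilises the hold of IFIT1 on viral RNA. Ifit3 ran from -1.07 to 0.04 in the 6 skins (median -0.39), from -0.05 to 2.15 in the 9 low-risk papillomas (median 0.93), from -0.24 to 1.46 in the 10 high-risk papillomas (median 0.11) and from -0.28 to 0.87 in the 6 carcinomas (median 0.37). Of the low-risk papillomas 8 of 9 lay above the highest skin, and the exception was number 6. Ifit3 was 1.46 ± 0.29 log2 units higher in low-risk papillomas than in skin (SE, adjusted p = 0.00235), or 2.74-fold, from -0.50 ± 0.43 (SD, n = 6) to 0.96 ± 0.63 (SD, n = 9). High-risk papillomas and carcinomas had differences of the same sign, each 0.83, that did not pass (adjusted p = 0.0811 and 0.241).

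The Ifit3 call held in each of 15 fits that left out a sample of those 2 groups, with differences of 1.31 to 1.58. With a block for array set the difference was 1.48 (adjusted p = 0.562), and within set D, which holds 1 skin and 3 low-risk papillomas, it was 1.35 (adjusted p = 0.608). The block left 5 of 18904 features called in that comparison. Without normal skin 1 and carcinoma 6 the difference was 1.56 (adjusted p = 0.00153). Ifit genes are alike in sequence, and whether the probe also binds their transcripts was not tested.

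**Figure D2:**
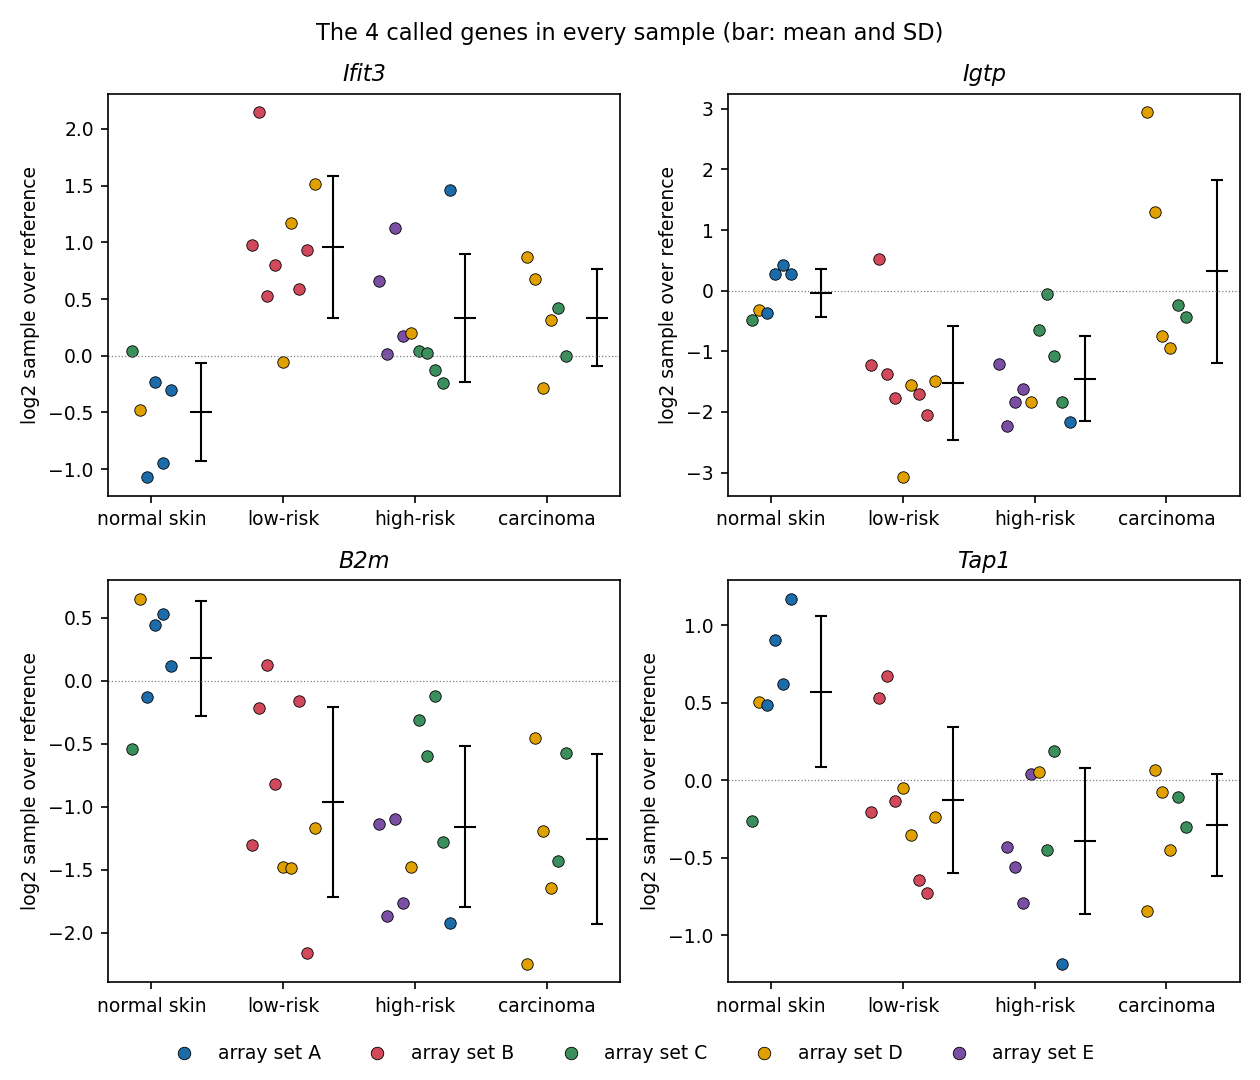
Log2 of sample over reference for Ifit3, Igtp, B2m and Tap1 in each of the 31 samples, by group, coloured by array set, with a bar at the mean and 1 SD. The low-risk papillomas sit above the skins in Ifit3 except for number 6, 3 of 6 skins sit above every tumour in B2m while normal skin 1 sits among the tumours, and carcinomas 1 and 2 stand above the other carcinomas in Igtp.

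The other 11 antiviral effectors tested did not pass in any comparison. Ifit2, another RNA-binding relative, ran from 0.21 to 0.85 in skin (median 0.40), from -1.11 to 1.15 in low-risk papillomas (median 0.18), from 0.07 to 1.85 in high-risk papillomas (median 0.81) and from 0.00 to 0.80 in carcinomas (median 0.14). The high-risk papillomas of set E held 0.92 to 1.85 and those outside it 0.07 to 0.92. The high-risk minus low-risk difference of Ifit2 was 0.84 ± 0.26 (SE, adjusted p = 0.100), and -0.03 with a block for array set.

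Mx2, a dynamin-like GTPase that blocks viruses, lay between -0.05 and 0.25 in all 6 skins (median 0.21) and between -2.02 and -0.08 in low-risk papillomas (median -0.38), with no overlap. In 9 high-risk papillomas it ran from -0.89 to -0.03 (median -0.40) and in carcinomas from -0.28 to 0.35 (median -0.08). The low-risk minus skin difference was -0.65 ± 0.22 (SE, adjusted p = 0.0612). Mx1, its relative, differed by -0.42 (adjusted p = 0.150).

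Usp18, which removes ISG15 from proteins and damps the interferon receptor, averaged 1.04 ± 0.76 in 10 high-risk papillomas (SD) and -0.01 ± 0.56 in 5 skins (SD), a difference of 1.05 ± 0.36 (SE, adjusted p = 0.0907). Isg15 itself, a ubiquitin-like modifier, was 0.81 ± 0.33 higher in carcinomas than in low-risk papillomas on average (SE, adjusted p = 0.218). Ifit1 lay between -0.23 and 0.43 in 5 carcinomas, above all 5 skins, whose highest value was -0.35, and its difference was 1.28 ± 0.55 (SE, adjusted p = 0.345). The remaining effectors, Oas1a and Oasl2 (sensors of double-stranded RNA and relatives), Rsad2 (viperin), Ifi35 and Ifih1 (the RNA sensor MDA5), overlapped between all groups. Their extremes were 2.60 for Oas1a in high-risk papilloma 5 and 2.79 for Oasl2 in low-risk papilloma 9.

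Igtp changed in 2 comparisons. Its product, Irgm3, is a GTPase that controls the loading of effector GTPases onto pathogen vacuoles. Igtp ran from -0.49 to 0.42 in skin (median -0.03), from -3.08 to 0.53 in low-risk papillomas (median -1.55), from -2.23 to -0.06 in high-risk papillomas (median -1.73) and from -0.94 to 2.95 in carcinomas (median -0.33). In low-risk papillomas 8 of 9 values lay below the lowest skin, and low-risk papilloma 2, the exception, lay above the highest. Carcinoma 1 at 2.95 and carcinoma 2 at 1.29 stood above all other samples, and the other 4 carcinomas lay between -0.94 and -0.23.

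Igtp fell by 1.49 log2 units in low-risk papillomas against skin, with an SE of 0.47 (adjusted p = 0.0493), or 2.80-fold lower. It was 1.84 ± 0.47 higher in carcinomas than in low-risk papillomas (SE, adjusted p = 0.0461), or 3.58-fold, and all 6 carcinomas lay above the low-risk mean. Against high-risk papillomas the carcinoma difference was 1.77 ± 0.46 (SE, adjusted p = 0.162), and high-risk papillomas differed from skin by -1.41 ± 0.46 (SE, adjusted p = 0.0712).

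Both Igtp calls lay just inside the threshold. Against low-risk papillomas, the carcinoma call was lost without low-risk papilloma 1, 5, 7, 8, 9 or 10 or carcinoma 1, 2, 3, 5 or 6, with differences over 15 such fits of 1.31 (without carcinoma 1) to 2.10 and adjusted p of 0.0161 to 0.131. Against skin, the low-risk call was lost in 13 of 15, the exceptions being those without normal skin 1 and low-risk papilloma 2, with differences of -1.74 to -1.29 and adjusted p up to 0.110. Without normal skin 1 and carcinoma 6 the values were 1.99 (adjusted p = 0.0551) and -1.58 (adjusted p = 0.0520), and with arrays scaled to equal spread 1.46 (adjusted p = 0.127) and -1.13 (adjusted p = 0.134). With a block for array set the differences were 2.40 (adjusted p = 0.306) and -2.14 (adjusted p = 0.644), and within set D 2.68 and -1.72.

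Irgm2, a regulator of the same family, showed no value above 0.36 in any group. It ran from -0.25 to 0.36 in 5 skins (median 0.11), from -2.76 to 0.20 in low-risk papillomas (median -1.19), from -3.71 to 0.08 in 9 high-risk papillomas (median -1.26) and from -0.57 to -0.00 in carcinomas (median -0.33). The 4 high-risk papillomas of set E held -3.71 to -2.81, and the 5 outside it -1.26 to 0.08, so that the low values lay in that set. The high-risk minus skin difference was -1.77 ± 0.55 (SE, adjusted p = 0.0595), and -0.61 with a block for array set (adjusted p = 0.656).

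Irgm1, another regulator, differed from skin by -1.12 ± 0.46 in low-risk papillomas (SE, adjusted p = 0.132), and its carcinomas ran from -1.98 to 2.03, the widest spread of any group for that gene. Iigp1, an effector GTPase that disrupts vacuoles, lay between -1.23 and 0.34 in every sample. The guanylate-binding proteins Gbp2, Gbp3 and Gbp4, which coat such vacuoles, overlapped between all groups, and the lowest value was -2.84 for Gbp3 in high-risk papilloma 3. None of these 5 genes passed in any comparison. The Irgm genes are also alike in sequence, and cross-binding of their probes was not tested.

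B2m was lower than skin in every tumour group. It pairs with all classical class I heavy chains and is needed for them to reach the cell surface. B2m ran from -0.55 to 0.65 in skin (median 0.28), from -2.16 to 0.13 in low-risk papillomas (median -1.17), from -1.92 to -0.12 in high-risk papillomas (median -1.21) and from -2.25 to -0.46 in carcinomas (median -1.31). Below the lowest skin, which was number 1, lay 6 of 9 samples in the low-risk group, 8 of 10 in the high-risk group and 5 of 6 carcinomas. The ranges overlap: 3 of 6 skins lay above the highest low-risk value, 4 of 6 above the highest high-risk value and 5 of 6 above the highest carcinoma.

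The mean B2m level was 0.18 ± 0.46 in skin (SD, n = 6), -0.96 ± 0.75 in low-risk papillomas (SD, n = 9), -1.16 ± 0.64 in high-risk papillomas (SD, n = 10) and -1.26 ± 0.68 in carcinomas (SD, n = 6). Against skin these were differences of -1.14 ± 0.34 (SE, adjusted p = 0.0353), -1.33 ± 0.33 (SE, adjusted p = 0.0174) and -1.43 ± 0.37 (SE, adjusted p = 0.0490), or 2.20, 2.52 and 2.70-fold lower. The 3 comparisons share the skins. Between tumour groups B2m passed in none.

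The high-risk call of B2m was lost only without normal skin 5 (adjusted p = 0.0522) among 16 fits that left out a sample. The low-risk call was lost without normal skin 2, 3, 4, 5 or 6 or low-risk papilloma 1, 7, 9 or 10, with differences of -1.28 to -0.99 and adjusted p up to 0.0861. The carcinoma call was lost without normal skin 2, 3, 4, 5 or 6 or carcinoma 1, 3, 4 or 5, with differences of -1.59 to -1.24 and adjusted p up to 0.157. Without normal skin 1 and carcinoma 6 the differences were -1.28, -1.48 and -1.72, and all passed (adjusted p = 0.0221, 0.00841 and 0.0149).

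With a block for array set the B2m differences were -1.60, -1.36 and -1.58 in the low-risk, high-risk and carcinoma groups, and none passed (adjusted p = 0.569, 0.197 and 0.377). Within set A the high-risk value was -2.16, from a lone high-risk papilloma. Within set D the differences were -2.03, -2.13 and -2.04, and within set C, whose skin is normal skin 1, they were -0.03 for high-risk papillomas and -0.46 for carcinomas. Sets C and D hold 1 skin each.

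Tap1, a subunit of the transporter that feeds class I molecules, ran from -0.26 to 1.17 in skin (median 0.57), from -0.73 to 0.67 in low-risk papillomas (median -0.21), from -1.19 to 0.19 in 8 high-risk papillomas (median -0.44) and from -0.84 to 0.07 in carcinomas (median -0.21). All 8 high-risk papillomas lay below the skin mean of 0.57, and 5 of 8 below the lowest skin, again number 1. Tap1 fell by 0.96 log2 units in high-risk papillomas against skin, with an SE of 0.25 (adjusted p = 0.0254), or 1.95-fold lower. The differences of low-risk papillomas, -0.70 ± 0.25, and of carcinomas, -0.86 ± 0.27, did not pass (SE, adjusted p = 0.0797 and 0.134).

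The Tap1 call was lost without normal skin 3, 4, 5 or 6 or high-risk papilloma 3, with differences over 16 such fits of -1.13 to -0.84 and adjusted p up to 0.0878. With a block for array set it was -0.90 (adjusted p = 0.312). Within sets A, C and D it was -1.98, 0.13 and -0.45, so that its sign turned in the set of normal skin 1. Without normal skin 1 and carcinoma 6 it was -1.13 (adjusted p = 0.00733).

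**Figure D3:**
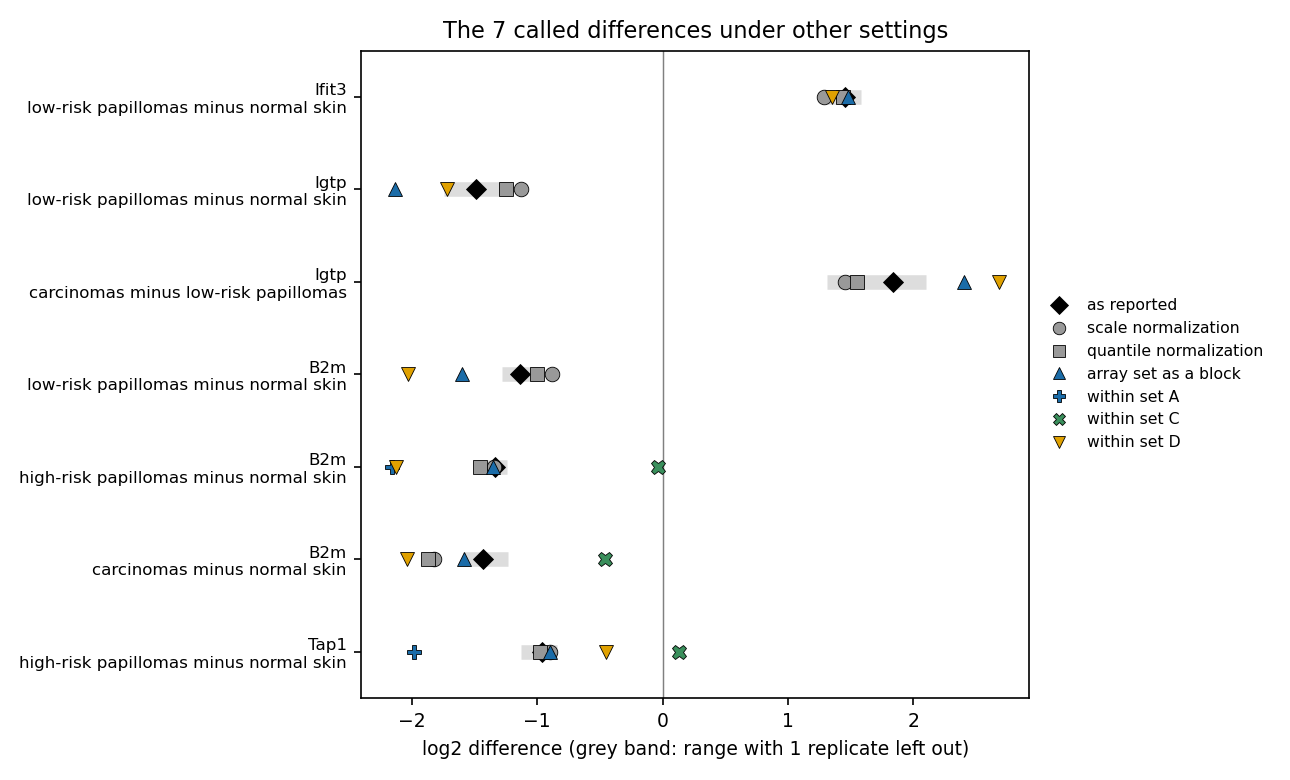
The 7 log2 differences that passed, as reported and with arrays scaled or quantile normalized, with a block for array set and within sets A, C and D, with a grey band for the range when a sample is left out. Most points keep their sign, and within set C B2m in high-risk papillomas lies at -0.03 and Tap1 at 0.13.

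H2-K1, a classical class I heavy chain, ran from 0.68 to 3.38 in skin (median 2.27), from -0.23 to 2.80 in low-risk papillomas (median 1.07), from -1.09 to 2.83 in 6 high-risk papillomas (median 0.09) and from -0.01 to 0.62 in carcinomas (median 0.21). All 6 carcinomas lay below all 6 skins. The difference was -1.82 ± 0.57 (SE, adjusted p = 0.130), and it passed in 1 of 12 fits that left out a sample. It also passed in 4 of 15 other alternatives, among them arrays scaled (-1.88, adjusted p = 0.0473) and only those 2 groups fitted (-1.82, adjusted p = 0.0392). Over those 15 it ran from -2.19 to -1.19. Without normal skin 1 and carcinoma 6 it was -2.17 (adjusted p = 0.0577). Heavy chain genes are closely alike, and whether this probe also binds their transcripts was not tested.

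Psmb9, a subunit that interferon gamma places in the immunoproteasome, lay between -0.24 and 0.48 in 5 skins (median -0.19), between -1.26 and -0.59 in 6 high-risk papillomas (median -0.97) and between -1.10 and -0.47 in 4 carcinomas (median -0.83), with no overlap with skin. In low-risk papillomas it ran from -1.56 to 0.21 (median -0.86). Differences from skin were -0.69 ± 0.27, -0.89 ± 0.29 and -0.74 ± 0.32 in the low-risk, high-risk and carcinoma groups (SE, adjusted p = 0.117, 0.0766 and 0.360). Psmb8, its partner subunit, differed by -0.69 in high-risk papillomas (adjusted p = 0.203).

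Psmb10, the remaining immunoproteasome subunit, had higher values in some tumours. It ran from -0.78 to -0.20 in skin (median -0.49), from -0.84 to 0.61 in 8 low-risk papillomas (median -0.29), from -0.87 to 2.13 in 9 high-risk papillomas (median -0.09) and from -0.73 to -0.36 in carcinomas (median -0.42). The high values were those of set E, 0.88 to 2.13, while the 5 high-risk papillomas outside it held -0.87 to -0.09. The high-risk minus skin difference was 0.91 ± 0.33 (SE, adjusted p = 0.102), and -0.67 within set D.

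Tap2, the partner of Tap1, differed from skin by -0.68 ± 0.30 in carcinomas (SE, adjusted p = 0.358) and from low-risk papillomas by -0.74 ± 0.28 (SE, adjusted p = 0.180). Tapbp, the tapasin that bridges transporter and heavy chain, overlapped between all groups. Averaged over the 8 class I genes after removing each gene's mean, skin stood at -0.15 to 0.69 (median 0.55), low-risk papillomas at -0.36 to 0.35, high-risk papillomas at -0.61 to 0.23 and carcinomas at -0.57 to -0.10. The lowest skin was number 1.

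The chemokines Cxcl9 and Cxcl10, which draw T cells to tissue, did not pass in any comparison. Cxcl9 ran from -0.15 to 0.59 in skin (median 0.25), from -0.72 to 0.71 in low-risk papillomas (median -0.35), from 0.13 to 0.78 in 7 high-risk papillomas (median 0.42) and from -0.54 to 0.51 in carcinomas (median -0.23). The high-risk minus low-risk difference was 0.60 ± 0.20 (SE, adjusted p = 0.137), and its sign turned with a block for array set (-0.22) and within set D (-0.10). Cxcl10 reached its lowest value, -2.57, in low-risk papilloma 9.

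Other cell types bring their own interferon and class I transcripts. The mean log2 level of 19 tested genes of T and NK cells ran from -0.11 to 0.29 in skin, -0.44 to 0.55 in low-risk papillomas, -0.42 to 0.40 in high-risk papillomas and 0.01 to 0.23 in carcinomas. The T cell gene Cd2 was higher in low-risk papillomas than in skin (3.28 ± 0.45 SE, adjusted p = 7.6e-05) while Cd3e and Cd8a were lower (-1.04 and -1.21, adjusted p = 0.00489 and 0.00846), so the list did not move as a whole.

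The mean of 18 macrophage genes ran from -0.83 to -0.41 in skin, -1.62 to 0.77 in low-risk papillomas, -1.49 to -0.19 in high-risk papillomas and -0.40 to 0.69 in carcinomas. Lyz1, a lysozyme gene on this list, was higher in carcinomas than in low-risk papillomas (2.14 ± 0.47 SE, adjusted p = 0.0211), the comparison in which Igtp rose. No other gene of the list passed there. The 12 dendritic cell genes had no call in any comparison. The mean of 11 neutrophil genes ran from -0.41 to 0.74 in skin, -0.22 to 1.09 in low-risk papillomas, 0.20 to 1.36 in high-risk papillomas and 0.26 to 1.07 in carcinomas. Their median difference from skin was 0.16, 0.26 and 0.21 in the low-risk, high-risk and carcinoma groups, with 6, 7 and 7 of the 11 above 0. S100a9, which stressed keratinocytes also make, had the largest difference of the list in all 3 (5.62, 6.18 and 4.35). The part of these cells in the differences above was not tested.

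Genes typical of other cell types of the tissue were read as well, as RNA levels and not as cell counts. In carcinomas against low-risk papillomas, the comparison in which Igtp was higher, 1 of 13 keratinocyte genes lay above 0 (median -0.85) and 9 of 10 fibroblast genes did (median 0.54), with no call in either list. Against skin, 2 of 8 skeletal muscle genes were lower in low-risk and in high-risk papillomas, Acta1 and Tnnc2, and the mean muscle level ran from 0.11 to 2.11 in skin and from -0.55 to 0.92 in tumours. Of 7 adipocyte genes, 1 was higher and 2 lower in low-risk papillomas, and 1 was lower in each of the other tumour groups. Their part in the B2m, Tap1 and Igtp differences was not tested.

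**Figure D4:**
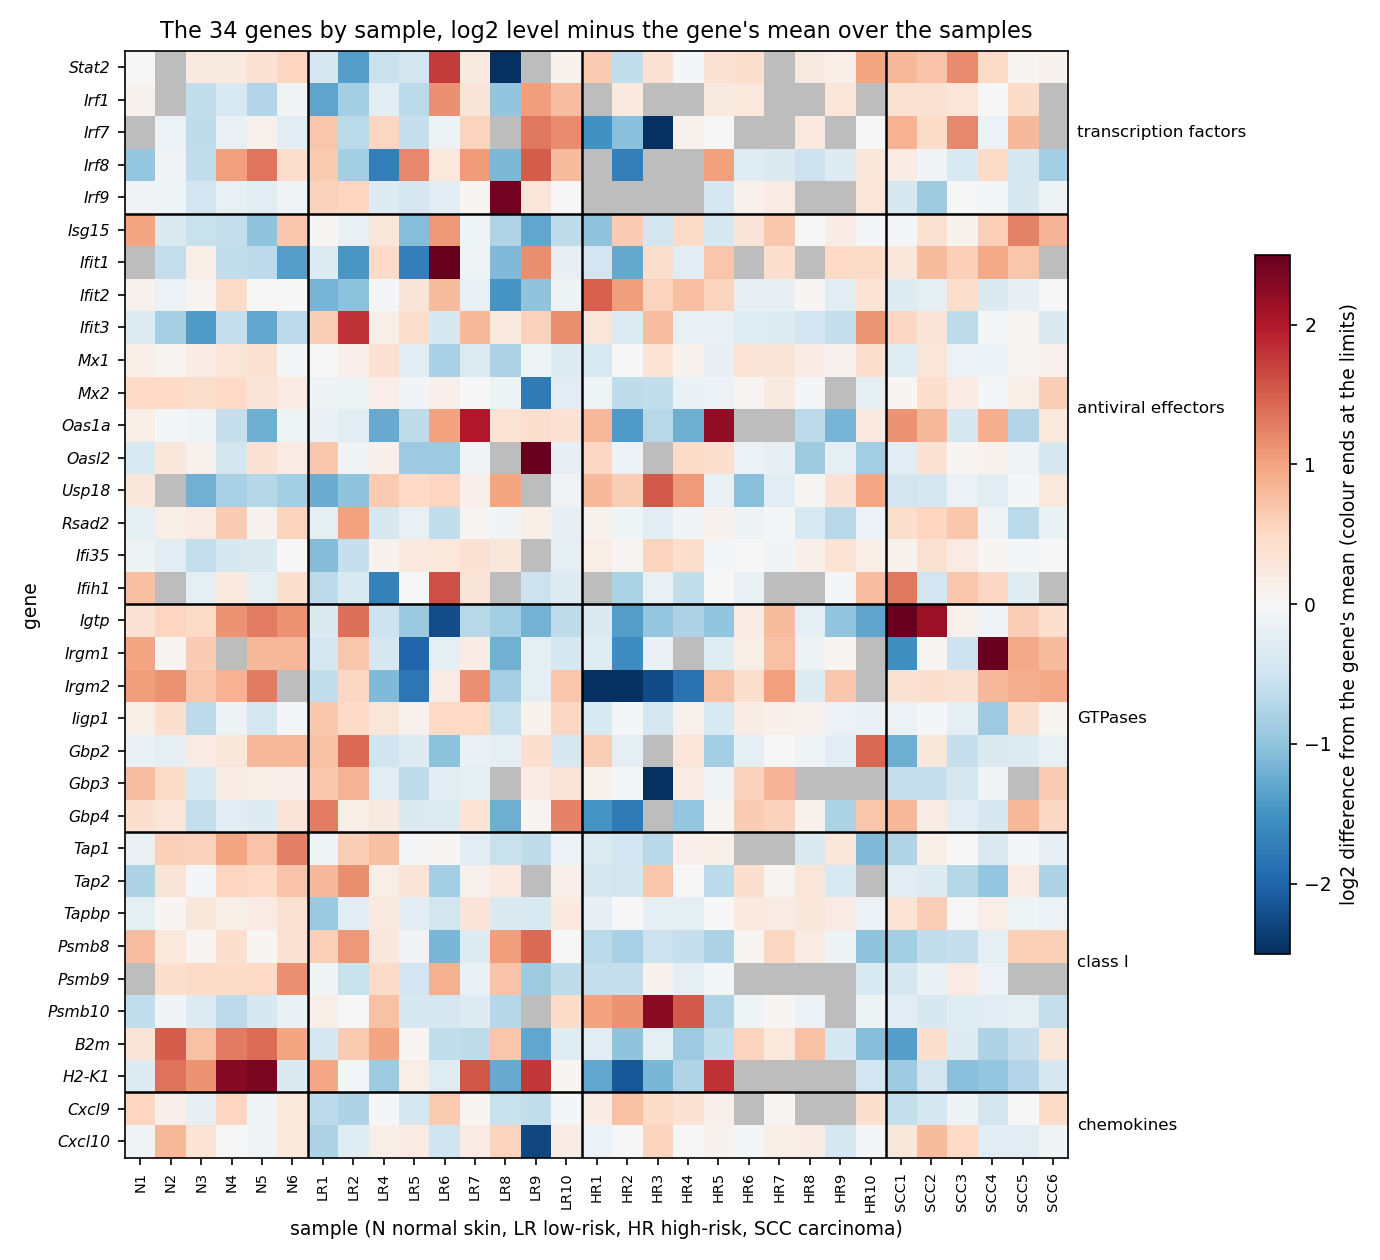
Each of the 34 genes, by role, in each of the 31 samples, as log2 level minus the gene's mean, with colours ending at -2.5 and 2.5 and grey where a value is missing. Most skins are high in B2m, Tap1 and H2-K1, but normal skin 1 is below the mean in Tap1 and normal skins 1 and 6 in H2-K1. High-risk papillomas 1 to 4 are low in Irgm2 and high in Psmb10, with Gbp4 low in the 3 of them that measured it. Single tumours stand apart in single genes.

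Correlations between pairs of genes were low for most roles. With group means removed, the median Pearson r over the 21 pairs of GTPases was 0.27, with 85.7% of pairs above 0, against 0.03 over all 559 pairs, 0.03 over 66 pairs of antiviral effectors, 0.03 over 28 pairs of class I genes and 0.00 over pairs of these genes with all other features. With array set means removed as well, the GTPases stood at 0.32 and the class I genes at 0.15. On the second design, over its 10 papillomas, the order was another, with 0.13 for the GTPases and 0.29 for the class I genes. These are descriptions over samples that share arrays and array sets, 20 to 31 a pair on the first design. Igtp and Irgm2, with like promoters, had an r of 0.17 over 29 samples, and Irgm2 and Gbp4 had 0.605 over 28. With array set means removed as well, the values were 0.245 for Igtp and Irgm2 and 0.238 for Irgm2 and Gbp4.

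Some close pairs rested on a single tumour and others did not. Usp18 and Ifi35 had an r of 0.720 over 29 samples and 0.655 without low-risk papilloma 1. Stat2 and Irf9 had -0.823 over 22 samples and -0.227 without low-risk papilloma 8. Mx2 and Cxcl10 went from 0.626 over 30 samples to -0.0191 without low-risk papilloma 9. Irf8 and H2-K1 had 0.743 over 24 samples, and 0.675 with array set means removed as well. B2m had 0.48 with Tap1 and -0.15 with H2-K1.

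The wider pathways were read through 3 further lists that hold none of these genes. Their median differences from skin in the low-risk, high-risk and carcinoma groups were 0.13, 0.07 and 0.11 for interferon production and signalling, -0.02, 0.05 and 0.26 for other interferon-induced genes and 0.07, 0.12 and 0.11 for class I processing and nonclassical class I molecules. Of 29 tested genes of interferon production and signalling, 1 passed, Socs1, an inhibitor of interferon receptor kinases, at 1.33 ± 0.36 in low-risk papillomas against skin (SE, adjusted p = 0.0228). Of 40 other interferon-induced genes, 3 were higher in low-risk papillomas than in skin, 3 higher and 1 lower in high-risk papillomas, and 1 higher in carcinomas, where 7.55%, 5.01% and 1.16% of all features passed. Ly6e, a membrane protein that limits virus entry, was higher in all 3, by 1.05 ± 0.32, 1.07 ± 0.32 and 1.69 ± 0.35 (SE, adjusted p = 0.0406, 0.0431 and 0.0127).

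Trim25, a ligase that activates the RNA sensor RIG-I, was higher than in skin by 1.01 in low-risk and 1.10 in high-risk papillomas (adjusted p = 0.0280 and 0.0323). Ifi202b, a DNA-binding protein, was higher by 2.74 in low-risk papillomas (adjusted p = 0.0345), and Cmpk2, a nucleotide kinase, by 1.33 in high-risk papillomas (adjusted p = 0.0140), where Parp9 fell by 0.76 (adjusted p = 0.0299). Between tumour groups Samhd1, which degrades nucleotides, was higher in high-risk than low-risk papillomas by 0.97 (adjusted p = 0.0363), and Ifi204 was higher in carcinomas than low-risk papillomas by 1.22 (adjusted p = 0.0477).

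Of 17 tested genes of class I processing and nonclassical class I molecules, H2-M3, which presents formylated peptides, was lower than in skin by 1 log2 unit or more in all 3 tumour groups: -1.02 ± 0.30, -1.07 ± 0.29 and -1.24 ± 0.32 in the low-risk, high-risk and carcinoma groups (SE, adjusted p = 0.0298, 0.0280 and 0.0496). H2-Q7, another nonclassical molecule, was lower in carcinomas (-1.42 ± 0.36 SE, adjusted p = 0.0422). Fcgrt, a class I-like receptor for antibodies that also pairs with B2m, was lower in low-risk papillomas than in skin (-1.30 ± 0.23 SE, adjusted p = 0.00101) and higher in high-risk than low-risk papillomas (0.85 ± 0.20 SE, adjusted p = 0.0433). Mr1, which presents microbial metabolites, was higher in low-risk papillomas than in skin (1.09 ± 0.34 SE), with an adjusted p just under the threshold of 0.05.

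The 10 papillomas labelled Unknown, on the second design, are given as values. Their arrays are of another design with other probes, so their levels are not set against the labelled groups. Of the 39 genes, 30 had a median over the papillomas below 0. The 77 probes for B2m had a median of -1.98 in papilloma 3, -1.60 in papilloma 4, -1.29 in 8, -1.18 in 9, -1.14 in 2, -0.95 in 1, -0.82 in 7, -0.62 in 5, -0.37 in 6 and -0.14 in 10. All 10 lay below 0, as did the median of 67 of the 77 probes. The SD between B2m probes of an array ran from 0.308 in papilloma 10 to 1.91 in papilloma 2, so that neighbours in this order differ by less than the spread of the probes.

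**Figure D5:**
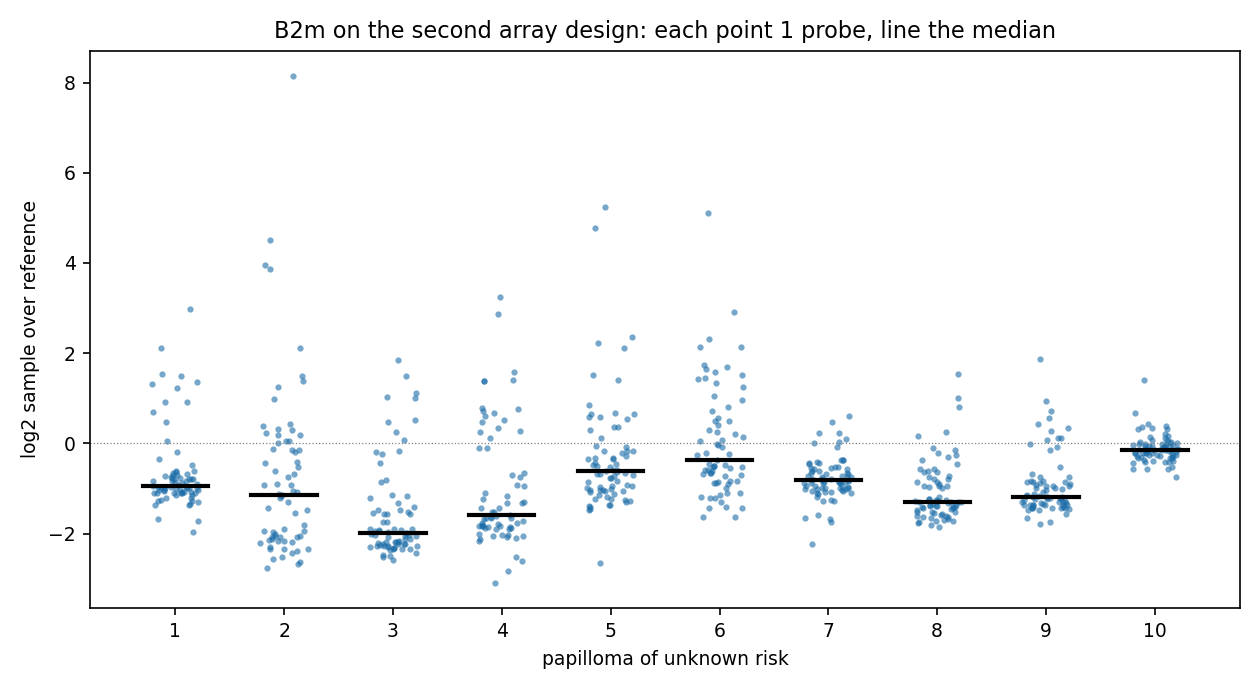
Log2 of sample over reference for each of the 77 B2m probes in the 10 papillomas labelled Unknown, with a line at the median of each array. The medians run from -1.98 in papilloma 3 to -0.14 in papilloma 10, and the points spread most in papilloma 2.

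Igtp ran from -3.43 in papilloma 2 to 1.10 in papilloma 3, with a median of -2.23, and papilloma 3 was the only sample above 0. Irgm2 ran from -3.60, again in papilloma 2, to -0.10, with a median of -1.31. Bst2, the tetherin that holds budding virus on cells and is measured only here, lay between -2.71 and -1.26 in all 10. Isg15 ran from -2.19 to 0.18 (median -1.21) and Ifit3 from -2.15 to -0.25 (median -1.18). Tap1 ran from -0.75 in papilloma 3 to 1.65 in papilloma 4 (median 0.77), and Tap2 from 0.15 to 3.63 (median 2.29), so that papilloma 3 was high in Igtp and lowest in Tap1, B2m and H2-K1 (-1.38).

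Papilloma 4 held the extremes of several inducible genes in both directions, on the array with the most missing probes (28.6%) and the widest SD (2.39). It held 9.38 for Cxcl9, 5.37 for Oasl1, 3.10 for Oas2 and 2.68 for Cxcl10, each the highest of the 10, and -2.15 for Ifit3, -1.53 for Irgm1, -1.43 for Oas1g and -1.08 for Mx2, each the lowest. The Cxcl9 and Oasl1 values each came from 1 of 2 probes, the other being empty there, and the probes of Cxcl9 had an r of 0.00855 over the rest. The Ifit3 value came from 1 of 3 probes. For Oas2 it was the median of probes at 0.572 and 5.62, and for Oas1g of probes at -2.79 and -0.074. Cxcl9 and Cxcl10 had an r of 0.927 over 9 papillomas and -0.166 without papilloma 4. Tap1 and H2-K1 had 0.887 over 10 and 0.749 without papilloma 3, and Irgm2 and Gbp2 had 0.864 over 10 and 0.655 without papilloma 2.

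Probes of a gene did not always rank the papillomas alike. The probes of H2-K1 had an r of 0.916 and those of Psmb10 0.746, whereas those of Irf9 had -0.400 and those of Ifit3 a median of 0.0249. Over 75 of the 77 B2m probes the median r between probes was 0.338, with a range of -0.789 to 0.989. The heavy chain gene H2-D1, measured only on this design, ran from -2.04 to 0.38 over the median of 2 probes whose own medians were 0.92 and -1.94.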

How the data were processed

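Each of 42 two-colour oligonucleotide arrays compared RNA of a mouse skin or tumour with a universal reference RNA. The authors deposited 1 log ratio per probe, taken here as log2 because the largest size was 15.02; its base, its direction, the normalization and the spot filters are not given in the sources used here. Per the labels, 31 of 32 grouped arrays carried the sample in Cy3, and 1 carried it in Cy5. Cy5 over Cy3 is the likely direction, so every array except the dye-swapped one was negated to give sample over reference. The swapped array and the other array of that extract were averaged (r = 0.306 over 19899 probes), and each array was centred on its median. The labels' title and source name number those tumours differently.

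Features measured in at least 3 samples of each group and 70% of all samples were kept, with 1 probe a gene symbol, the probe with most values. Of 21997 probes, 16076 had 1 symbol, 288 several and 5633 none; names come from the platform annotation, which can be old. The 4 groups were fitted in 1 model with limma 3.58.1 in R 4.3.3, with Benjamini-Hochberg adjustment, and missing values were not imputed. Of the 34 genes, 11 were measured in all 31 samples and the fewest in 23. Descriptions used Python 3.11.15, numpy 2.4.6, pandas 2.3.3, scipy 1.17.1 and matplotlib 3.10.9. The code was tested on simulated data. Precision is limited by the number of arrays. Promoters are RefSeq's.

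The genes and lists were chosen with earlier results of these data known. Genes that passed in a comparison, and the 12 with the smallest p of the F test over the groups, are given with values in every group, the others by range, and up to 4 genes called from each further list. Replicate numbers do not pair samples: deviations of samples with the same number had a median r of -0.0103 over 37 pairs, and of others 0.00975 over 317. Alternatives changed the scaling, centring, filter, probe summary, variance model, samples and blocks.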

Additional observations from a re-analysis of the deposited data

Results flagged for a closer look

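In 48 groups of 4 to 10 values of the named genes, a sample stood far from the rest of its group in 2, and chance gives about 1 in 20. Mx2 was -2.02 in low-risk papilloma 9, where the nearest of the other 8 was -0.51. Psmb9 was 0.48 in normal skin 6, where the nearest of the other 4 was -0.18. Without low-risk papilloma 9 the Mx2 difference from skin was -0.46, the smallest in size of its 15 leave-one-out values.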

How the results depend on the processing

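The 7 differences that passed kept their sign under every alternative but 1: Tap1 in high-risk papillomas against skin was 0.13 within array set C. Signs also turned for Cxcl9, high-risk minus low-risk (-0.22 with the array set as a block, -0.10 within set D), Ifit2 in that comparison (-0.030 with the block) and Psmb10, high-risk minus skin (-0.67 within set D). The cause was not tested.

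Counts of genes called, with 1 sample left out at a time, ran from 0 to 2 for high-risk minus low-risk, 0 to 1 for carcinomas minus low-risk, 0 to 0 for carcinomas minus high-risk, 1 to 4 for low-risk minus skin, 0 to 5 for high-risk minus skin and 0 to 3 for carcinomas minus skin. With array weights they were 2, 4, 0, 8, 10 and 10. The shares of all features called under this and the settings below are not given here, so these counts are not set against the whole array. With the array set as a block they were 0 in all 6, and 0 within sets C and D wherever both groups were present, while set A, with a lone high-risk papilloma, gave 6 for high-risk minus skin. Scaling gave 0 for carcinomas minus low-risk, 5 for high-risk minus skin and 3 for carcinomas minus skin, and quantile normalization 0, 6 and 5. For carcinomas minus low-risk the count was also 0 without the dye-swapped array, without normal skin 1 and carcinoma 6, and with only 2 groups fitted. For high-risk minus skin it was 1 for genes measured in every sample, 0 with the database number range as a block, 4 without normal skin 1 and carcinoma 6 and 5 with only 2 groups. For carcinomas minus skin it was 0 without centring, with a filter of 2 samples, without the dye-swapped array and with the database number range as a block, and 3 with only 2 groups.

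The replicate block, though numbers do not pair samples, gave counts of 0, 0, 0, 2, 3 and 0 in the order above. Signal over background is not in the deposited ratios, so whether a low value is measured or a bound cannot be told.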
